A study of Mus musculus with 3 samples.

Results

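The Bcl2 family decides whether a cell dies by the mitochondrial route of apoptosis, and 10 of its genes were followed here in male gonads of mouse embryos that lack Cyp26b1, at embryonic days E12.5, E13.5 and E14.5. The members are 7 genes that promote death (Pmaip1, Bbc3, Bax, Bak1, Bid, Bad and Bcl2l11) and 3 that protect from it (Bcl2, Bcl2l1 and Mcl1). They were taken by name, with every probe whose RefSeq accession belongs to them. This gave 16 probes of 10 genes, 9 promoting and 7 protecting, out of 41153 probes and 16620 named genes on the array. All 16 probes were well above background on all 6 arrays, so every member passed the filter on dim signals.

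All samples were gonads of male embryos of the MCH mouse line with the genotype Cyp26b1-/-, a deletion that every group carries. The enzyme it encodes degrades retinoic acid. Each stage had 2 one-colour Agilent arrays, which the series calls biological duplicates. The labels do not say whether a sample held gonads of 1 embryo or of several, so p-values measure the spread between these arrays. Gonads with a working Cyp26b1 gene were not analysed here, so the values show change over time within the knockout and nothing about the effect of the deletion. The E12.5 arrays shared 1 slide and the other 4 shared a second, so change since E12.5 cannot be told apart from a difference of slide. E13.5 and E14.5 can be compared on the same slide. The gonad is a mixed tissue, and in such bulk samples fewer cells of a type and less RNA per cell cannot be told apart.

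In the mitochondrial route, Bax and Bak1 open pores in the outer mitochondrial membrane, and cytochrome c escapes and starts the caspases. Bcl2, Bcl2l1 and Mcl1 hold these pore formers in check. The BH3-only proteins, here Pmaip1 (Noxa), Bbc3 (Puma), Bid, Bad and Bcl2l11 (Bim), carry the death signal to them by blocking the protectors or by switching the pore formers on. In the fetal testis this route removes surplus and misplaced germ cells, and male germ cells of mice without Bax survive in excess.

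Signals below are log2 values over the array's 75th percentile of all non-control spots, so 0 is the signal at that percentile. A level is compared between stages on the same probe and never between probes. A difference is a log2 difference of stage means, given ± its SE in the limma model (n = 2 arrays a stage), and "rose" or "fell" is used for a Benjamini-Hochberg adjusted p under 0.05 over all 13486 genes kept. The brightest probe stands for a gene, and other probes were tested in a fit over all 28391 probes kept. Duplicate arrays of a stage differed by a median of 0.09 to 0.14 over the 16 member probes, depending on the stage, and by at most 0.62. Bax, Bcl2 and Bcl2l1 each have 1 probe that is spotted 10 times on every array, and the SD between such spots of 1 array was 0.0236 to 0.0857.

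Promoter sequence is shown for Bid and Bcl2l1, which moved in opposite directions between E12.5 and E14.5 as fitted and in all 14 alternatives. Both are the 250 bases before a RefSeq gene start, 5′ to 3′ on the strand of the gene, from the GRCm38.p6 build, with GC boxes (GGGCGG on either strand) in capitals. The Bid window is chr6:120916825-120917074, minus strand, and the Bcl2l1 window is chr2:152831729-152831978, minus strand, the most upstream of 3 starts listed for that gene.
Bid: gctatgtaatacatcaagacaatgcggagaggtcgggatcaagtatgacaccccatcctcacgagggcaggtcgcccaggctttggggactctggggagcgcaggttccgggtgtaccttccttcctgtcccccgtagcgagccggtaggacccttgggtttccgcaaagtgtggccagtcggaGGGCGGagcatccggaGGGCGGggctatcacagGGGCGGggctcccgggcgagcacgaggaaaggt
Bcl2l1: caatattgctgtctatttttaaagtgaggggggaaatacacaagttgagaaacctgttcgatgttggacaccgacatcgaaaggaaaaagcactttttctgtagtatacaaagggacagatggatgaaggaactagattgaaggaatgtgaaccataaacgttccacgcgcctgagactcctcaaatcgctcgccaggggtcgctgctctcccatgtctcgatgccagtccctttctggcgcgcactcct
The Bid window holds 3 GC boxes and the Bcl2l1 window none. A GC box is in 32.7% of all 32851 upstream windows that RefSeq gives, and in 10 of the 15 windows listed for members, which belong to 7 of the 9 genes matched. Pmaip1 is the member not matched. The retinoic acid receptor half-site AGGTCA is in 14% of all windows and in 1 member window, a more downstream start of Bcl2l1. That gene also has the single member match to the E2F sequence TTTCGCGC, held by 0.256% of all windows. TTTGGCGC (0.417% of all windows), TTTCCCGC (0.895%), TGACGTCA (1.55%) and TATAAA (12.4%) were in 0 member windows. CACGTG (6.02% of all windows) was found in 2 of the 15 member windows, those of Bax and Bbc3. CCAAT (33.8% of all windows) was in 4 of the 15, which belong to Bad, Bbc3 and Bcl2l11. All motifs were searched on both strands, and no match in the 2 printed windows overlapped another motif. A match is a description of the letters and not of binding.

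Among the promoting members, Pmaip1 stood out by size. Pmaip1 is a small BH3-only protein that blocks Mcl1 in particular, and its gene is a target of p53. Its single probe was at 1.18 and 1.46 on the E12.5 arrays, 0.28 and 0.34 on those of E13.5 and -0.74 and -1.34 on those of E14.5. The 3 stages did not overlap, with E12.5 highest and E14.5 lowest. Between E12.5 and E14.5 Pmaip1 fell by 2.36 ± 0.21, which is 5.15-fold (adjusted p = 0.000986), and the call held in all 14 alternatives, between -2.66 and -2.07. The first step was -1.01 ± 0.21 (2.02-fold, adjusted p = 0.0189), and leaving out any of the 4 arrays involved ended this call (0.0505 to 0.0801). The second step, within 1 slide, was -1.35 ± 0.21 (2.55-fold) and did not pass (adjusted p = 0.0898). The limma fit over all probes did not call it either (adjusted p = 0.159). It passed in only 4 of 15 alternatives. These were normexp (0.00997), median scaling (0.0442), a trend and robust prior (0.021) and leaving out the first E14.5 array (-1.65).

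Markers of the mesonephros and its ducts, tissue that borders the gonad, were lower in sum at each later stage, as Pmaip1 was. Their summed signal, with the 75th percentile as 1, was 1.06 to 1.24 at E12.5, 0.581 to 0.805 at E13.5 and 0.302 to 0.399 at E14.5, and 4 of 6 fell between E12.5 and E14.5 (Lhx1, Calb1 and Gata3 were 3 of these) while Pax2 rose. Without Lhx1, the largest of them, the sums were 0.37 to 0.402, 0.221 to 0.24 and 0.209 to 0.253, and the last pair of stages overlapped. Erythroid markers were also lower in sum at each later stage, as Pmaip1 was. They summed to 112 to 146 at E12.5, 49.5 to 67.4 at E13.5 and 15.9 to 31.1 at E14.5. Between E12.5 and E14.5, 5 of 7 fell. Without Hbb-y, the largest, the erythroid sums were 30.8 to 37.8, 11.7 to 15.8 and 8.18 to 9.65, and no stages overlapped. Germ cell markers summed to 35.8 to 46.4 at E12.5 and 63.1 to 75.4 at E14.5, with 5 of 7 higher (Ddx4, Dazl, Mael, Tdrd1 and Sycp3). Macrophage markers rose in 5 of 6, in sum from 2.02 to 2.44 up to 4.28 to 4.82. Sertoli markers summed to 117 to 140 and 166 to 173 at these stages, with 2 of 8 higher, Sox9 lower and a median difference of 0.04. Cst9 alone carried that rise, and the other 7 Sertoli markers summed to 62.2 to 66.9 at E12.5 and 55.3 to 61.2 at E14.5. All 5 Leydig markers kept rose, in sum from 2.51 to 3.51 up to 58.7 to 77.9. Of 7 endothelial markers 3 fell, and they summed to 16.1 to 16.7 at E12.5, 13 to 13.3 at E13.5 and 12.5 to 13.0 at E14.5. Without Emcn, the largest, the endothelial sums were 10.4 to 11.5, 7.23 to 7.75 and 7.68 to 7.75, and the last pair of stages overlapped. Of 7 interstitial markers 1 rose (Gli1), with sums of 33.7 to 35.1 at E12.5 and 30.2 to 31.6 at E14.5. Gcna, Insl3 and Cd68 were not among the genes kept. Over all 13486 genes kept, 25.6% rose and 20.9% fell between E12.5 and E14.5. The part of these cell types in the results on the members was not tested.

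The genes nearest to Pmaip1 in profile were found by the root mean square difference over the 6 arrays after each gene was centred on its own mean. Of 13485 other genes, 13 lay within 0.25 of Pmaip1. The closest were Nphs1, which encodes nephrin of kidney podocytes (0.135), Lrrc2 (0.143), the cartilage collagen gene Col9a1 (0.148), Zfp750 (0.186) and Ldoc1 (0.199). Nphs1, Col9a1 and Zfp750 were well above background on 6 arrays, Lrrc2 on 5 and Ldoc1 on 3, so the place of Ldoc1 rests in part on signals near the floor.

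**Figure D1:**
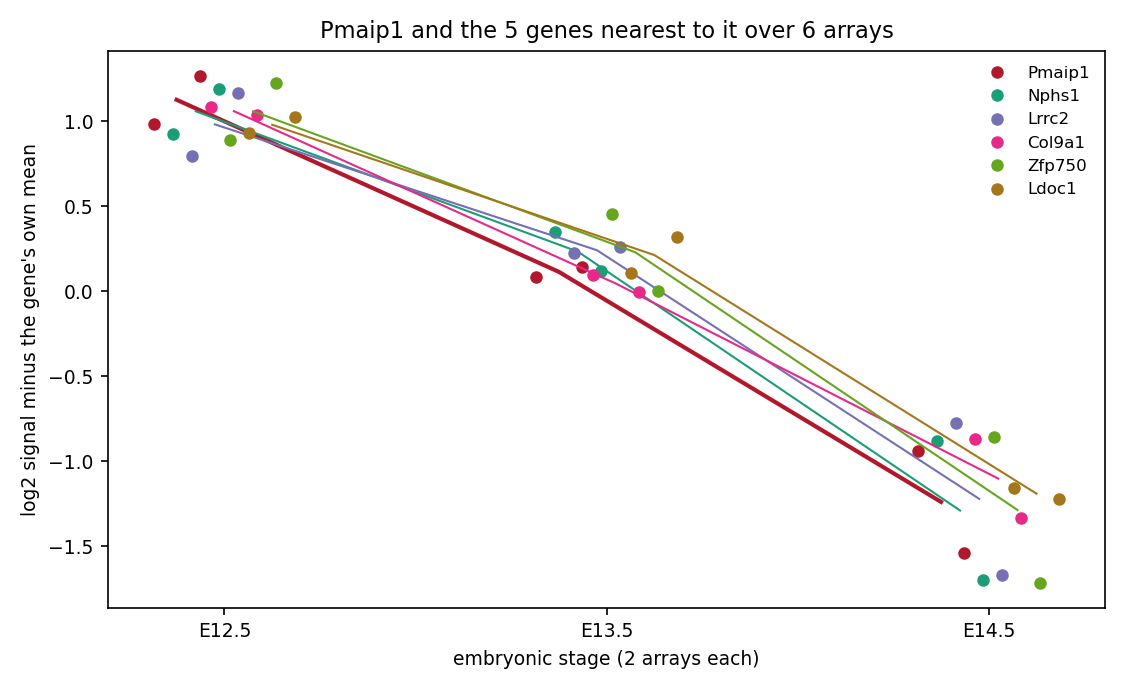
Log2 signal minus the gene's own mean over the 6 arrays (y axis) by embryonic stage (x axis) for Pmaip1 and the 5 genes nearest to it. Points are arrays, 2 per stage, shifted sideways per gene, and lines join stage means. The 5 genes were chosen for this likeness, so their shared course is a description.

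The other BH3-only genes divided between a fall (Bid), a rise (Bad) and no call (Bbc3, and Bcl2l11 on its brighter probe). Bid, which is cut by caspase 8 and links death receptors to the mitochondria, was at 0.30 and 0.42 on the E12.5 arrays, -0.10 and -0.22 on those of E13.5 and -0.26 and -0.48 on those of E14.5. The stages did not overlap, and E12.5 was highest. Bid fell by 0.73 ± 0.13 from E12.5 to E14.5 (1.66-fold, adjusted p = 0.00647), a call kept in all 14 alternatives. The first step of Bid was -0.52 ± 0.13 (adjusted p = 0.0283), lost with no background filter (0.0563) and without any 1 of the 4 arrays compared (0.0658 to 0.146). The second step was -0.22 ± 0.13 (adjusted p = 0.415).

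Bad, a BH3-only protein that growth factor signals keep inactive by phosphorylation, went the other way. Its probe was at -4.19 and -4.21 on the E12.5 arrays, -3.73 and -3.68 on those of E13.5 and -3.55 and -3.79 on those of E14.5. Both later stages lay above E12.5 and overlapped each other. Bad rose by 0.53 ± 0.12 from E12.5 to E14.5 (1.45-fold, adjusted p = 0.0149). Median scaling ended this call (0.37, adjusted p = 0.0786), as did leaving out either E12.5 array (0.0511 and 0.0554) or the first of E14.5 (0.0607). The first step was 0.50 ± 0.12 (adjusted p = 0.0274) and passed in 7 of 14 alternatives, being lost with median scaling (0.075), a trend and robust prior (0.0677), no filter (0.0545) and without any 1 of the 4 arrays compared (0.0832 to 0.133).

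Bcl2l11, the BH3-only gene Bim, was read by 2 probes. The brighter was at 0.97 and 1.10 on the E12.5 arrays, 0.77 and 0.81 on those of E13.5 and 0.77 and 0.86 on those of E14.5, and its difference of -0.22 ± 0.11 from E12.5 to E14.5 did not pass (adjusted p = 0.135). The dimmer was at -1.99 and -1.90, -2.39 and -2.45, and -2.44 and -2.33 in the same order. On the dimmer probe the fit over all probes gave a fall of 0.48 ± 0.12 at E13.5 (adjusted p = 0.0332) and of 0.45 ± 0.12 at E14.5 (adjusted p = 0.0283), both against E12.5. The 2 probes pointed the same way, and with their mean Bcl2l11 passed in both comparisons (-0.36, adjusted p = 0.043, and -0.34, adjusted p = 0.0402). Bbc3, the p53 target Puma, was at 0.92 and 0.56 on the E12.5 arrays, 0.44 and 0.47 on those of E13.5 and 0.70 and 0.44 on those of E14.5. Its stages E12.5 and E14.5 overlapped, and no comparison passed (-0.18 ± 0.16 from E12.5 to E14.5, adjusted p = 0.4).

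Of the pore formers, Bax was at 2.37 and 2.37 on the E12.5 arrays, 2.84 and 2.75 on those of E13.5 and 2.76 and 2.24 on those of E14.5. The 2 arrays of E14.5 lay 0.52 apart, 1 with E13.5 and the other below E12.5, although the 10 spots of Bax on either array had an SD of at most 0.0336. Bax was at 0.42 ± 0.18 for the first step (adjusted p = 0.12, and 0.0421 without either E14.5 array) and at 0.13 ± 0.18 from E12.5 to E14.5 (adjusted p = 0.573), and neither passed.

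Bak1 gave different answers on its 2 probes. The brighter was at 1.08 and 0.57 on the E12.5 arrays, -0.07 and -0.15 on those of E13.5 and -0.09 and -0.25 on those of E14.5. E12.5 was highest without overlap, and the later stages overlapped each other. On this probe Bak1 fell by 0.93 ± 0.18 in the first step (1.91-fold, adjusted p = 0.0155) and by 0.99 ± 0.18 from E12.5 to E14.5 (1.99-fold, adjusted p = 0.00804). The dimmer probe was at -2.22 and -2.28, -2.12 and -2.25, and -2.20 and -2.45 in the same order, with 0.07 ± 0.14 for the first step and -0.08 ± 0.14 from E12.5 to E14.5 (adjusted p = 0.74 and 0.681). With the mean of both probes the change from E12.5 to E14.5 was -0.535 and still passed (adjusted p = 0.0428), and the first step was -0.43 and did not (0.0646). The first-step call was also lost without the first or second E13.5 array (0.0572 and 0.0798).

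**Figure D2:**
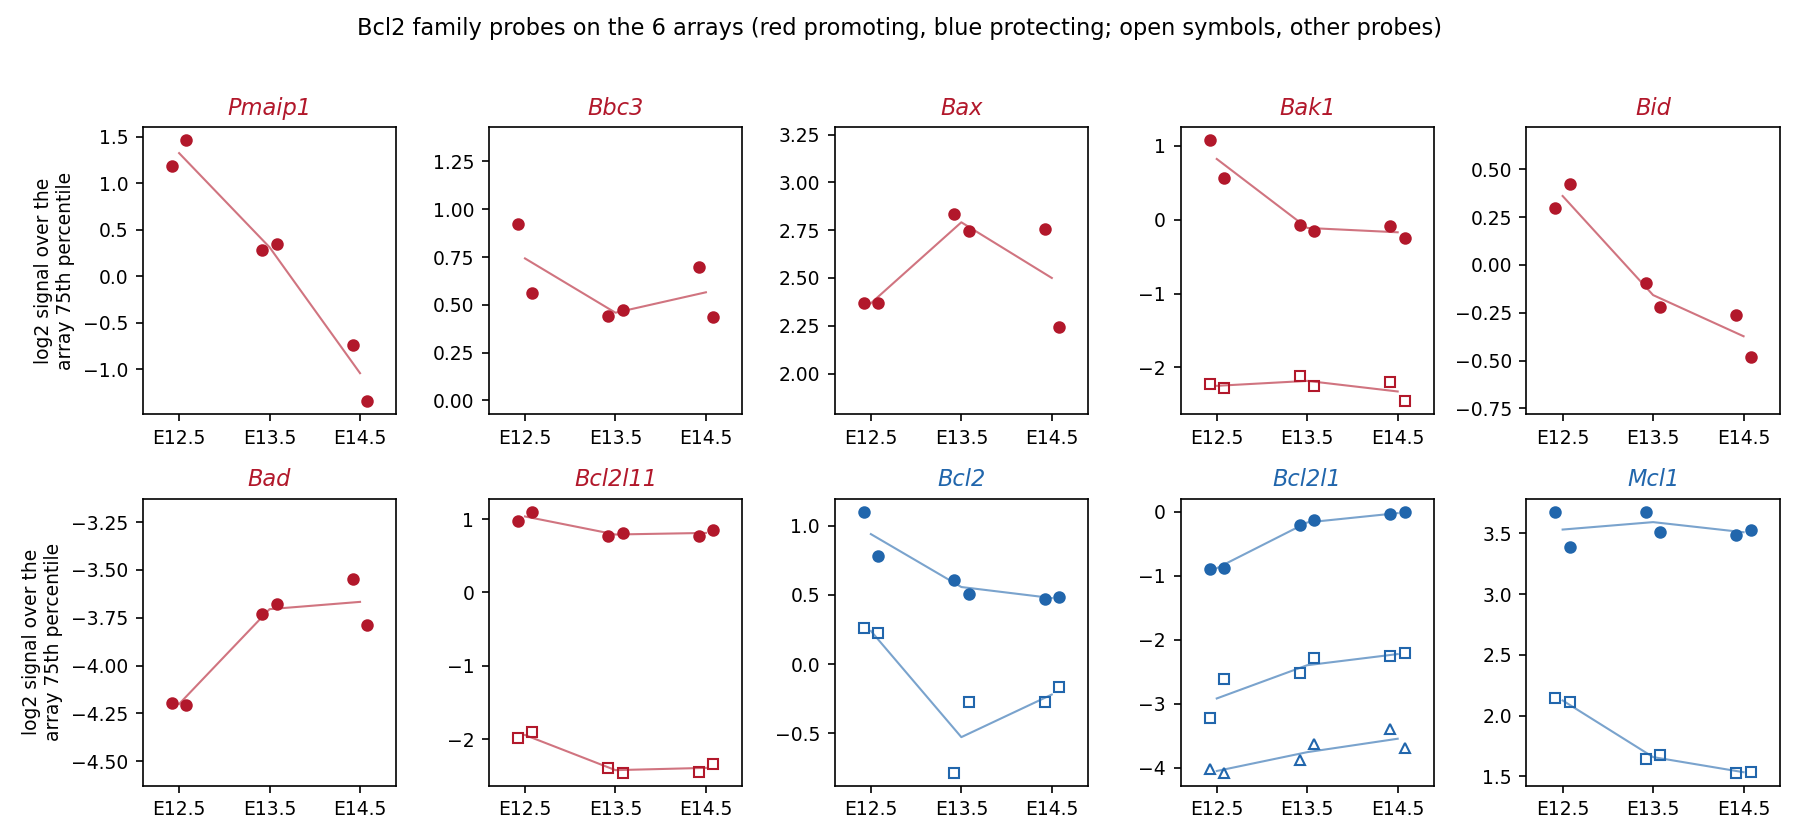
Log2 signal over the array's 75th percentile (y axis, scaled per gene) for the 16 probes of the 10 genes by embryonic stage (x axis), 2 arrays per stage. Filled symbols are the brightest probe, open symbols the others, red marks promoting and blue protecting genes, and lines join stage means. Pmaip1 steps down at each stage, the 3 Bcl2l1 probes lie higher at E14.5 than at E12.5, and the 2 probes of Bak1 and of Mcl1 differ in course.

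Among the protecting members, Bcl2l1 changed most. It encodes Bcl-xL, which binds Bax, Bak1 and several BH3-only proteins, and a shorter splice form of the same gene, Bcl-xS, that promotes death. The labels do not say which form each probe reads. The brightest probe, averaged over 8 to 10 spots per array, was at -0.89 and -0.87 on the E12.5 arrays, -0.20 and -0.14 on those of E13.5 and -0.04 and -0.00 on those of E14.5. The stages did not overlap, and E14.5 was highest. Bcl2l1 rose by 0.71 ± 0.10 in the first step (1.64-fold, adjusted p = 0.00615) and by 0.86 ± 0.10 from E12.5 to E14.5 (1.81-fold, adjusted p = 0.002), and both calls held in all 14 alternatives. The second step was 0.15 ± 0.10 (adjusted p = 0.481).

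The other Bcl2l1 probes lay on the same side. One was at -3.22 and -2.61 at E12.5 and -2.25 and -2.20 at E14.5 (0.69 ± 0.22, adjusted p = 0.0535). The other was at -4.02 and -4.07 at E12.5 and -3.40 and -3.69 at E14.5, and it rose by 0.50 ± 0.16 (adjusted p = 0.048). Neither passed in the first step (0.52 ± 0.22 and 0.29 ± 0.16).

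Bcl2, the founding protector of the family, lay lower after E12.5. Its 10-spot probe was at 1.10 and 0.78 on the E12.5 arrays, 0.61 and 0.51 on those of E13.5 and 0.47 and 0.48 on those of E14.5. The 3 stages did not overlap. Bcl2 fell by 0.46 ± 0.14 from E12.5 to E14.5 (1.38-fold, adjusted p = 0.0362), a call that the fit over all probes did not make (0.0502). It was also lost with no background filter (0.0662) and without any single array other than the second of E12.5 (0.0629 to 0.12), and leaving out the first of E12.5 gave -0.30. The first step was -0.38 ± 0.14 (adjusted p = 0.0795). The second Bcl2 probe carries another RefSeq transcript of the gene and was at 0.26 and 0.22 on the E12.5 arrays, -0.78 and -0.27 on those of E13.5 and -0.27 and -0.16 on those of E14.5. It fell by 0.77 ± 0.19 in the first step (adjusted p = 0.0345), with E13.5 arrays 0.51 apart, and was at -0.46 ± 0.19 from E12.5 to E14.5 (adjusted p = 0.102).

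Mcl1, a short-lived protector that Pmaip1 binds, differed between its probes. The brighter was at 3.67 and 3.39 on the E12.5 arrays, 3.68 and 3.51 on those of E13.5 and 3.49 and 3.53 on those of E14.5, and all stages overlapped (-0.02 ± 0.14 from E12.5 to E14.5, adjusted p = 0.907). The other was at 2.14 and 2.11, 1.64 and 1.67, and 1.53 and 1.54 in the same order, with no overlap. On that probe the fit over all probes gave a fall of 0.47 ± 0.11 in the first step (adjusted p = 0.0288) and of 0.59 ± 0.11 from E12.5 to E14.5 (1.51-fold, adjusted p = 0.00998). No single direction is therefore given for Mcl1.

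**Figure D3:**
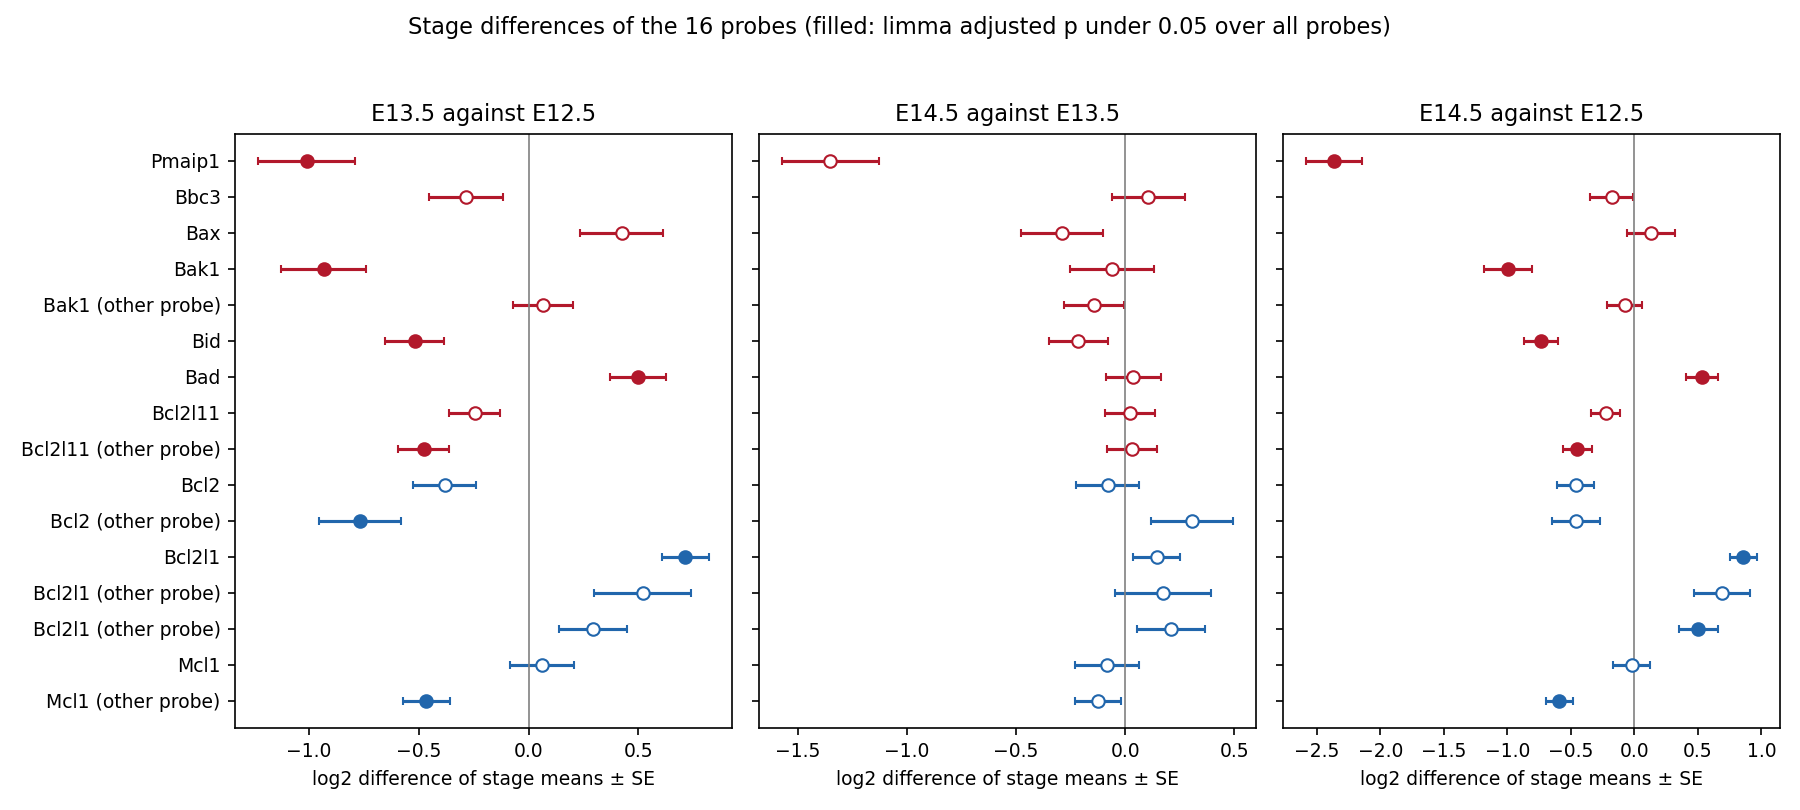
Log2 difference of stage means ± SE (x axis) for each of the 16 probes (rows) in the 3 comparisons of stages, each with its own x scale, with red for promoting and blue for protecting genes. Filled points passed an adjusted p of 0.05 in the limma fit over all probes. In the first and the third comparison 8 probes are filled, and in E14.5 against E13.5 none is.

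By role, 3 of 7 promoting members fell between E12.5 and E14.5 (Pmaip1, Bid and, on its brighter probe alone, Bak1), 1 rose (Bad) and 3 did not pass. Of the 3 protecting members 1 rose (Bcl2l1), 1 fell (Bcl2) and 1 did not pass (Mcl1). Together 6 of 10 members were called, where 46.4% of all 13486 genes were, 25.6% higher and 20.9% lower, so the share of members called was near the background. The median difference was -0.22 for promoting and -0.02 for protecting members, beside 0.03 for all genes. With median scaling the 2 medians were -0.39 and -0.19, and that of all genes moved to -0.14. Groups did not overlap for 7 of 10 members and for 75.4% of all genes. By probe 8 of 16 were called, beside 40.2% of all probes, and 5 of 16 with no background filter, a fit over 41153 probes.

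In the first step 3 promoting members fell (the same genes, Bak1 again on its brighter probe alone), Bad and Bcl2l1 rose and 5 members did not pass, so 5 of 10 were called, beside 31.6% of all genes, 18.4% higher and 13.3% lower. Leaving out 1 array gave between 1 and 6 called members. The medians were -0.28 for promoting and 0.06 for protecting members, and 0.05 for all genes. Of the probes 8 of 16 were called, beside 27.4% of all probes, and 1 of 16 with no background filter (Bcl2l1). Groups did not overlap for 9 of 10 members, beside 71.9% of all genes.

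In the second step limma called 0 of 10 members, beside 0.0519% of all genes. By direction the background was 0.0445% higher and 0.00742% lower. That is 7 genes over the whole array, although limma gave 2479 genes an unadjusted p under 0.05. Pmaip1 alone among the members was one of those. Of the probes 0 of 16 passed, beside 0.00352% of all probes. With normexp, median scaling, a trend and robust prior or without the first E14.5 array, 1 member was called, Pmaip1. Groups did not overlap for 4 of 10 members (Pmaip1, Bid, Bcl2 and Bcl2l1), beside 55.5% of all genes. The difference between the 2 steps was tested in limma as its own contrast, and 0 of 10 members passed, beside 0.497% of all genes (0.282% higher and 0.215% lower), with the smallest adjusted p at 0.156 for Bcl2l1. Unadjusted limma values were under 0.05 for Bak1 (0.0336) and Bcl2l1 (0.0166) in that contrast, and 0 of 16 probes passed, beside 0.0352% of all probes. No member is therefore said to have changed more in 1 step than in the other. The 3 comparisons share arrays and are not independent of each other.

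Other genes of the family and of the pathway were taken from lists that do not overlap the members, and the values that follow compare E14.5 with E12.5. In that comparison 46.4% of all 13486 genes were called, 25.6% higher and 20.9% lower, and the counts of each list stand beside these shares. Of 15 other Bcl2 family genes 10 were kept, and Bik, a BH3-only gene, rose (0.98 ± 0.14, adjusted p = 0.00345). Bcl2l14 passed downward on its brightest probe (at least 2.42-fold), but was at 0.03 on its other probe, and normexp (-0.04, adjusted p = 0.789) or leaving out the first of E12.5 (0.0646) or the second of E14.5 (0.0555) ended the call. The pore former Bok was at 0.25 ± 0.11 and the protector Bcl2l2 at -0.20 ± 0.14, and neither passed. The list median was -0.06.

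Downstream of the mitochondria, 14 genes of the apoptosome, the caspases and released factors were all kept. Apaf1, the scaffold that cytochrome c assembles into the apoptosome, fell by 0.86 ± 0.13 (1.82-fold, adjusted p = 0.00463), with its other probes at -0.16 and -1.08. Dffa, the inhibitor of the nuclease that cuts DNA in dying cells, passed upward (0.48 ± 0.14, adjusted p = 0.0371), in 6 of 14 alternatives. Casp9, the initiator caspase (0.12 ± 0.30), and Cycs, cytochrome c (-0.07 ± 0.18), did not pass, nor did 9 others, and the list median was -0.11. Among inhibitors of apoptosis, which block caspases, 2 of 7 passed downward (list median -0.33). Birc6 was at -0.51 ± 0.16 (adjusted p = 0.0442) and passed in 7 of 14 alternatives. For Xiap no fall is read, since it was above background on 3 arrays, changed sign with normexp (0.22) and passed in 4 of 13 alternatives.

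Death receptors moved both ways. Tnfrsf10b, the mouse receptor for the ligand Trail, fell by 0.95 ± 0.15 (adjusted p = 0.00458), with its other probes at -1.15 and -1.34. Fas fell by 0.73 ± 0.16 (adjusted p = 0.0133), a call that ended under normexp (-0.15, 0.4) or when the second E14.5 array was left out (0.0657). Tnfrsf21 also fell (-0.69 ± 0.16, adjusted p = 0.0149). Tnfrsf1a, a receptor of tumour necrosis factor, rose by 0.87 ± 0.14 (adjusted p = 0.00508). Tnfrsf25 rose by 0.99 ± 0.21 (adjusted p = 0.0133, lost without the second E12.5 array at 0.0659 or the second E14.5 array at 0.0635), and 6 of the 11 genes kept did not pass (list median 0.12).

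Of 20 genes of p53 and its targets, beside Pmaip1 and Bbc3, 4 fell, 1 rose and 15 did not pass, and the list median was -0.11. Trp53 itself, encoding p53, was at -0.36 ± 0.26 on its brightest probe and at 0.37 on its other probe, and did not pass. Its targets Mdm2 (-0.14 ± 0.11) and Cdkn1a (-0.42 ± 0.14, adjusted p = 0.0545) did not pass either. The falls were Gtse1 (-0.75 ± 0.11, adjusted p = 0.0039), Mdm4 (-0.65 ± 0.13, lost without the first E14.5 array at 0.0527, with its other probes at -0.05 and -0.41), Gadd45a (-0.59 ± 0.13, lost without the first E12.5 array at 0.0614 or the second E14.5 array at 0.0634) and Btg2 (-0.40 ± 0.12). Perp, an adhesion gene of the p53 response, passed upward (0.53 ± 0.14, adjusted p = 0.0271) in 9 of 14 alternatives.

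In the list named other regulators of BH3-only genes, 3 of 8 passed upward and 1 fell. Whether each listed gene regulates BH3-only genes was not tested. Ddit3, the stress factor Chop, rose by 0.74 ± 0.12 (adjusted p = 0.00579), while Atf4, which lies above it in the integrated stress response, fell by 0.69 ± 0.12 (adjusted p = 0.00647). Jun (0.39 ± 0.12, adjusted p = 0.0355) and Chac1 (0.46 ± 0.14, adjusted p = 0.0426) passed in 5 and 6 of 14 alternatives. In the germ cell survival list, Kit, the receptor for the survival factor Kitl, fell by 0.93 ± 0.12 (adjusted p = 0.00249). Kitl fell by 0.73 ± 0.15 on its brightest probe, but was at 0.34 on its other probe, and their mean did not pass (adjusted p = 0.315). Dnd1, whose loss costs germ cells their survival, fell by 0.63 ± 0.18 (adjusted p = 0.0307), a call that ended under no filter (0.0608) or when either E12.5 array (0.108 and 0.0864) or the second of E14.5 (0.135) was left out. Nanos2, a regulator of male germ cells, rose (adjusted p = 0.00112), by at least 7.16-fold as scaled here and by a log2 difference of only 1.62 with normexp. Nanos2 was above background on 4 arrays and not at E12.5, so that p-value rests in part on signals near the floor. Of the 27 pathway genes named by rule with a call, 12 kept it under every alternative.

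**Figure D4:**
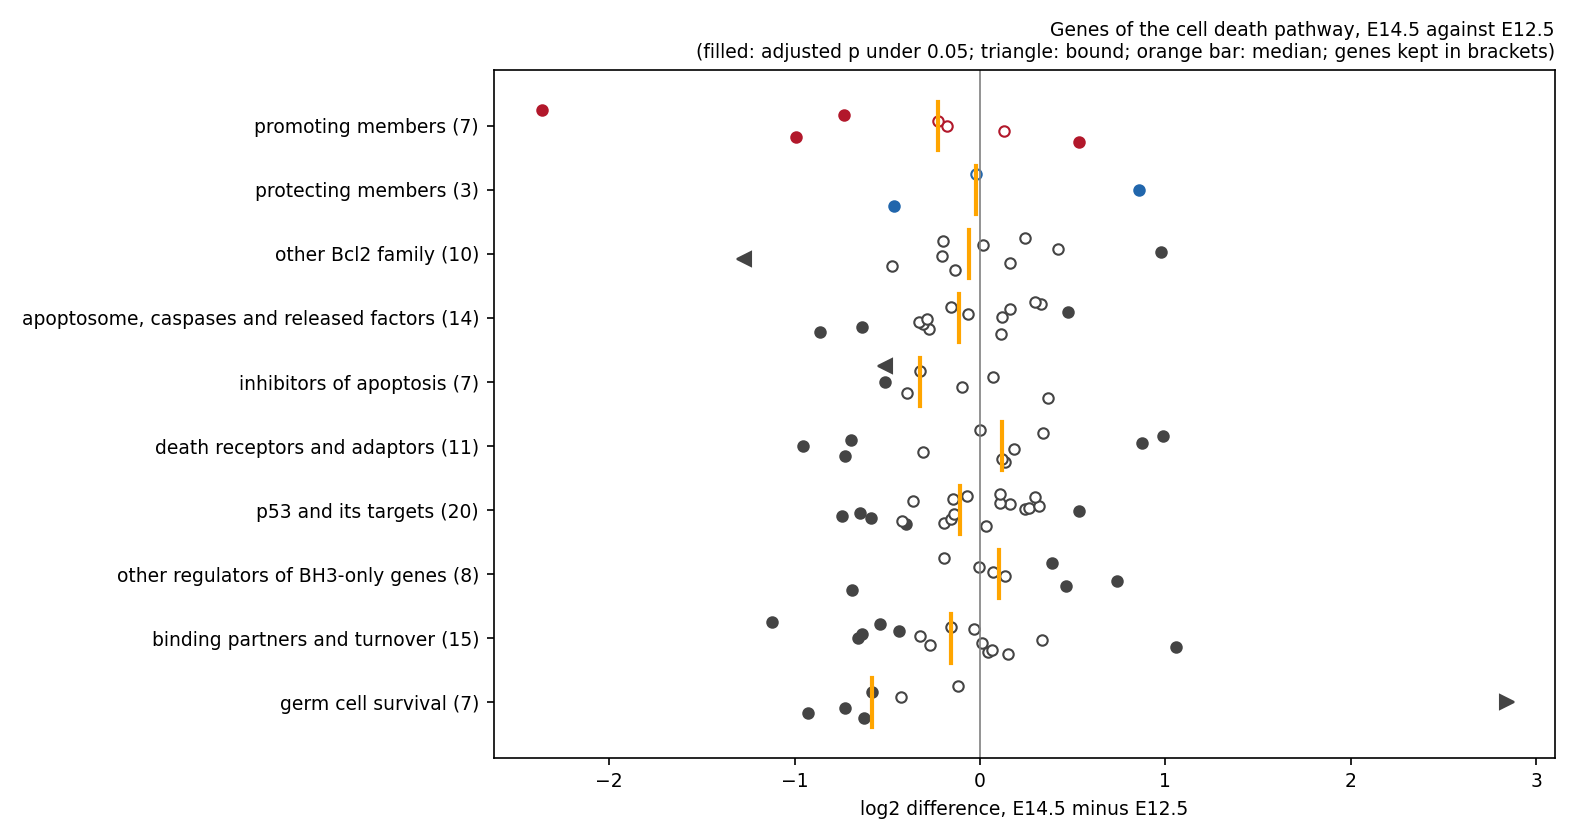
Log2 difference, E14.5 minus E12.5 (x axis), of each gene in the member groups and in 8 pathway lists (rows, with the number of genes kept). Filled symbols passed an adjusted p of 0.05 in limma, triangles are bounds, as scaled here, for genes not above background at the dimmer stage, and orange bars are list medians. Pmaip1 at -2.36 lies farthest left among the members.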

How the data were processed

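Agilent one-colour arrays were scanned with Feature Extraction (version 9.5, per the labels), and the deposited intensity (gProcessedSignal) is background-subtracted, per the file headers. Its log2 was taken minus each array's 75th percentile over non-control spots, spots of a probe were averaged and flagged outlier spots left out. Genes were named by matching each probe's RefSeq accession to RefSeq gene symbols, and 17608 of 41153 probes had no single match. Annotation differed between the slides for 3021 probes, and that of the slide with E13.5 and E14.5 was used first. A gene was kept where some stage had it well above background on each of its 2 arrays. Stages were compared with limma 3.58.1 (R 4.3.3; lmFit and eBayes), 2 arrays per stage, with Benjamini-Hochberg adjustment; the method was tested on simulated data. The authors' deposited table gives 1 linear ratio per probe and stage, with reference and scale unstated; its log2 differences were used as a check. A gene not above background at the dimmer stage has its fold as a bound against the lowest signal above background. Duplicates correlated at 0.9934 to 0.9956, 65.3% to 70.14% of probes were above background and 0 spots were saturated; the number of arrays limits the precision. Members, lists and named genes were chosen with earlier results of these data known. Tnfrsf21, Btg2 and the marker genes were named after their values were seen, and their calls were not followed over the alternatives. Some genes of the lists are counted but not reported here by name. Replicate numbers were not used to pair the arrays (correlations of same-numbered deviations -0.0602 to 0.228, the highest between E13.5 and E14.5). Alternatives were normexp, quantile, median scaling, other filters, mean of probes, a trend and robust prior, a replicate block, 1 slide only and leaving out each array.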

Additional observations from a re-analysis of the deposited data

How the results depend on the processing

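Results from E12.5 kept their direction more often than their calls. Genes called for E14.5 against E13.5 numbered 7, and 394 with normexp, 352 with a trend and robust prior, 90 with median scaling, 4 with quantile normalization, 1 with a replicate block, 0 with no filter, with a filter on all 6 arrays, with the mean of probes or with the 4 arrays of 1 slide, and 0 to 47 leaving out an array. Members called in that comparison numbered 0, and 1 with normexp, median scaling or a trend and robust prior, and 0 to 1 leaving out an array. For the first step 4265 genes were called and 1397 to 4001 leaving out an array, and for E14.5 against E12.5 6259 genes and 3954 to 5424. The difference between the 2 steps had 67 genes, 565 with a trend and robust prior and 0 to 71 leaving out an array. The promoting median of the first step was -0.365 with median scaling, -0.362 with the mean of probes and -0.454 to -0.268 leaving out an array, and that of E14.5 against E12.5 was -0.389 with median scaling and -0.358 to -0.224. The protecting median with the mean of probes was -0.202 for the first step, -0.306 for E14.5 against E12.5 and 0.114 for E14.5 against E13.5, where it was -0.163 with median scaling and -0.127 to 0.00145 leaving out an array. Promoting members called higher numbered 0 with median scaling in both comparisons with E12.5 and 0 in the first step with no filter, and leaving out an array 0 to 2 and 0 to 1. Promoting members called lower in the first step numbered 0 to 3 leaving out an array. Protecting members called lower numbered 1 in the first step with the mean of probes and 0 for E14.5 against E12.5 with no filter, and 0 to 1 in either leaving out an array. Member probes called with no filter numbered 1 and 5, a fit over more probes. Xiap changed sign with normexp (0.218). With median scaling 47.2% of calls in the first step were higher, against 58%, and 39.4% for E14.5 against E12.5, against 55.1%. With the replicate block 5, 0 and 6 members were called, as without it, beside 3784, 1 and 5824 genes. The cause of these differences was not tested.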

Other observations

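Among 15 binding partners and turnover factors of the family, 5 fell between E12.5 and E14.5 (limma), Fbxw7 rose and 9 did not pass, with a list median of -0.16. Over all 13486 genes 46.4% were called in this comparison, 25.6% higher and 20.9% lower. Fbxw7, part of a ubiquitin ligase that marks Mcl1 for degradation, rose by 1.06 ± 0.11 (adjusted p = 0.0016), with its other probe at 1.15. Usp9x, which removes ubiquitin from Mcl1, fell by 0.63 ± 0.20 (adjusted p = 0.0412). No call was made for Huwe1, another gene of this list, whose E12.5 and E14.5 arrays overlapped (-0.27 ± 0.18, adjusted p = 0.264). The 14-3-3 genes Ywhaz and Ywhae, whose proteins hold phosphorylated Bad in the cytosol, fell by 1.12 ± 0.22 (adjusted p = 0.0104, and 0.0528 if the second of E14.5 is left out) and 0.54 ± 0.14 (adjusted p = 0.0244). Opa1, which shapes the inner mitochondrial membrane, fell by 0.66 ± 0.12 (adjusted p = 0.00726). The channel gene Vdac1 fell by 0.43 ± 0.11 (adjusted p = 0.024), a call that ended when either E12.5 array (0.0538 and 0.0883) or the second of E14.5 (0.109) was left out. Usp9x, Huwe1 and Ywhae were named after their values were seen, and their results were not followed over the alternatives.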
